A study of Mus musculus with 16 samples.

Results

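Facial ectoderm of Esrp1 knockout (KO) mouse embryos was compared with facial ectoderm of wild-type (WT) embryos, gene by gene, in a table the authors deposited. A gene was measured where its mean over both ectoderm groups was at least 1 TPM (a scale of transcript abundance adjusted for library size and gene length). This held for 13935 of 30286 gene symbols. The difference is given as the log2 ratio of KO over WT, with 1 TPM added to each value, and the added 1 shrinks the ratio of genes with small values. Of the measured genes, 5525 were at least as high in WT ectoderm as in WT mesenchyme. These are called the ectoderm class, since mesenchyme RNA carried into an ectoderm sample cannot raise the TPM of a gene that is no higher in that mesenchyme. The other 8410 genes, higher in WT mesenchyme, are called the mesenchyme class.

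The study separated the surface ectoderm of the facial prominences from the mesenchyme beneath it by surgery, in C57BL/6 embryos at embryonic day 12, and sequenced RNA of both layers. Its 4 groups were WT ectoderm, ectoderm of Esrp1-/- embryos, WT mesenchyme and mesenchyme of Esrp1-/- embryos. Each group had 4 libraries, each from a pool of 6 to 7 embryos, so that 8 of 16 libraries belong to the comparison of ectoderm. The deposited table holds 1 value per group and not 1 per library. No error, replicate check or test can therefore be given for any value here, and "higher" and "lower" describe deposited values at least 1.5-fold apart unless the values are given beside the word. The deleted stretch of Esrp1 is not given in the labels. For index barcodes, the labels list a pair in place of 1 for 1 library of WT ectoderm and 2 libraries of KO ectoderm.

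Esrp1 encodes an RNA-binding protein of epithelial cells that steers the splicing of many transcripts towards their epithelial forms. The facial prominences grow out and fuse to form the upper lip and the palate, and their ectoderm sends Wnt, hedgehog and Fgf signals to the mesenchyme. The same sheet of ectoderm holds regions with different fates, among them oral epithelium that will make teeth, nasal epithelium that will make the olfactory lining, and future skin.

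The deposited columns separated the layers. Krt5, a keratin of basal epithelium, was at 702 and 522 TPM in WT and KO ectoderm and at 2.22 and 2.32 in WT and KO mesenchyme, and the adhesion gene Cdh1 at 190, 160, 1.23 and 1.11. With 1 row kept for each symbol, the WT columns summed to 916266 TPM (ectoderm) and 967303 (mesenchyme) and the KO columns to 953741 and 975762. The depth behind a TPM value is unknown. RNA of other cells was not equal between the ectoderm groups. All 33 measured genes of a mesenchyme core list lay in the mesenchyme class, and their sum was 955 TPM in WT ectoderm and 1543 in KO ectoderm, against 6004 and 4307 in WT and KO mesenchyme. Genes of blood vessels summed to 31.1 and 84.4 TPM in WT and KO ectoderm and genes of skeletal muscle to 46.6 and 135, while genes of red blood cells summed to 4816 and 5065. The Y-linked genes Ddx3y, Kdm5d, Uty and Eif2s3y summed to 63.0 and 110 TPM in WT and KO ectoderm and to 66.8 and 168 in WT and KO mesenchyme, so they moved with the genotype in both layers. The part of these differences in the results was not tested. In bulk tissue, fewer cells of a type and less RNA per cell cannot be told apart.

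The genotype was visible at Esrp1 itself, which lies on chromosome 4 (11331933 to 11386783, minus strand, GRCm38). Esrp1 had 170 TPM in WT and 62.9 in KO ectoderm, a log2 ratio of -1.42, and 1.01 and 1.0 TPM in WT and KO mesenchyme. KO ectoderm thus kept 37.0% of the WT value, and 1 value per gene cannot tell intact from altered transcripts. Of 18 measured genes within 1 Mb of Esrp1, 0 were 1.5-fold apart between the ectoderm groups. Of all measured genes 4.93% were higher and 0.452% lower, so 0 of 18 is near that share. The log2 ratios of the 18 ran from -0.15 in Fsbp to 0.38 in a predicted model, Gm12918. Esrp2, the closest relative of Esrp1 and also an epithelial splicing regulator, had 71.8 and 76.5 TPM in WT and KO ectoderm.

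Over all measured genes, the higher side dominated: 687 genes were higher in KO ectoderm (4.93%) and 63 lower (0.452%), with a median log2 ratio of 0.05. Of the 687 higher genes, 594 belonged to the mesenchyme class. The ectoderm class held 93 higher genes (1.68% of the class) and 58 lower genes (1.05%), and its median was -0.03. At 2-fold the counts in the class were 30 higher and 18 lower. The balance of the class depended on the scale. It was 62 higher and 112 lower after quantile normalization, 77 and 80 with the median ratio of all genes set to 0, 86 and 88 with each column scaled to its protein-coding nuclear genes, and 74 and 83 after a trend with transcript GC content was taken out. The balance also turned on the cutoff of the class: among genes at least 2-fold higher in WT ectoderm than in WT mesenchyme, 30 were higher and 42 lower. The plot of the KO effect against layer preference shows ratios that climb towards genes of mesenchyme and lie mostly near 0 on the ectoderm side.

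**Figure D1:**
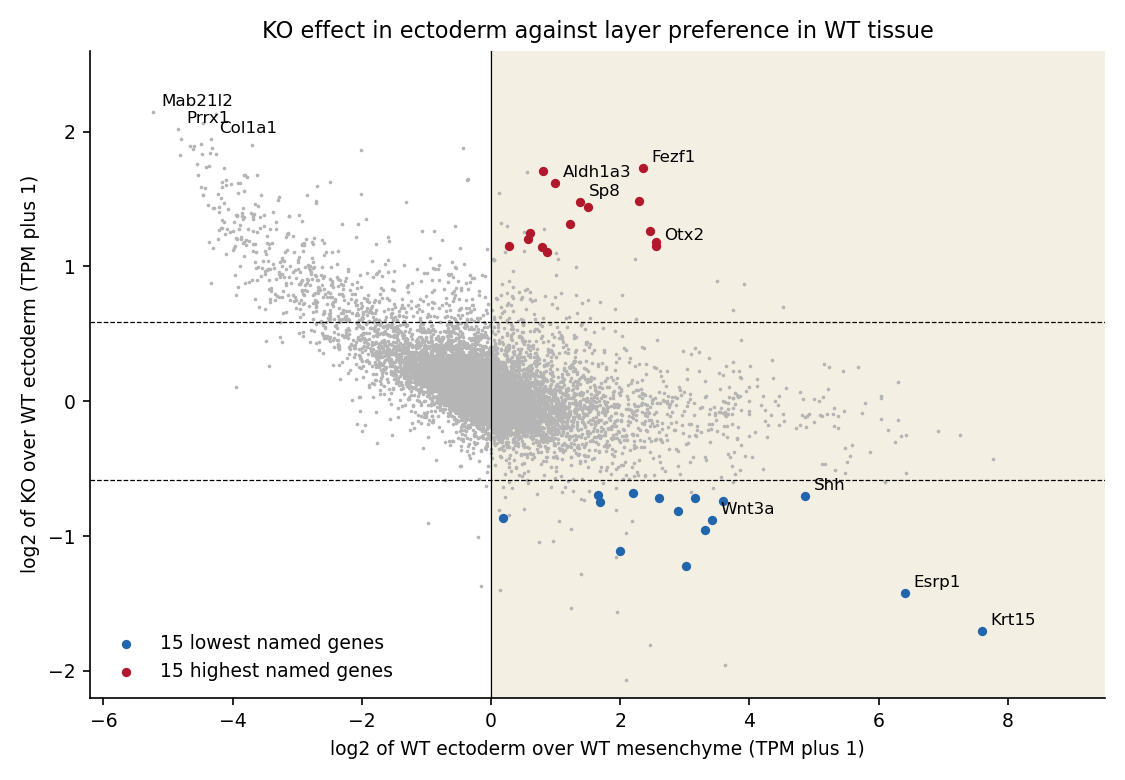
Each point is 1 of 13935 measured genes; the horizontal axis is the log2 ratio of WT ectoderm over WT mesenchyme, the vertical axis the log2 ratio of KO over WT ectoderm, and dashed lines mark 1.5-fold. The shaded side is the ectoderm class, on which the 15 lowest (blue) and 15 highest (red) named genes are marked; 5 genes under -2.2 lie outside the plotted range.

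Within the class, the stronger the preference for ectoderm, the lower the median. WT ectoderm enters both the preference and the ratio, so too high a WT ectoderm value raises the preference and lowers the ratio. The trend is thus partly built in, and the size of that part was not tested. With the class set in KO tissue instead, 166 genes were higher and 37 lower. The 4498 genes less than 2-fold higher in WT ectoderm had a median of -0.02, the 714 genes from 2- to 5-fold -0.07, the 247 genes from 5- to 20-fold -0.09 and the 66 genes at 20-fold or more -0.11. In that order 0.356%, 3.50%, 5.26% and 6.06% were lower at 1.5-fold, and 1.40%, 3.08%, 2.83% and 1.52% higher. Carried-over mesenchyme dilutes every gene that mesenchyme lacks, and the size of that dilution can be stated for an assumed share. With the shares of mesenchyme RNA described with the mesenchyme class, the same medians were 0.00, 0.03, 0.06 and 0.05 after a share of WT mesenchyme was subtracted from KO ectoderm, and 0.01, 0.09, 0.15 and 0.14 after a share of KO mesenchyme. That subtraction lifts genes of strong ectoderm preference most is built into it, so these medians do not tell whether dilution lowered the deposited ones. After subtraction the class held 138 higher (2.5%) and 46 lower genes (0.833%) with the WT share, and 160 higher (2.9%) and 49 lower (0.887%) with the KO share.

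The lowest named genes of the class joined a keratin, Esrp1 and several secreted signals. Krt15, a keratin of basal epithelial cells, had 321 TPM in WT and 97.9 in KO ectoderm, a 3.28-fold difference and a log2 ratio of -1.70. It was at 0.66 and 0.99 in WT and KO mesenchyme. Fam19a4, which encodes a small secreted chemokine-like protein, was at 8.68 and 3.15 TPM in WT and KO ectoderm (-1.22). Plbd1, a phospholipase-like gene, was at 14.1 and 6.80 (-0.96). Wnt3a, a ligand of the canonical Wnt pathway, was at 10.1 and 5.01 (-0.88), and Shh, the hedgehog ligand of facial and oral epithelium, at 34.03 and 20.5 (-0.71). Both ligands were under 0.5 TPM in either mesenchyme. The nuclear receptor gene Nr2e3 was at 12.3 and 6.94 (-0.74) and fibromodulin, Fmod, at 21 and 12.4 (-0.72). Rhbdl3, Gdpd2, Dynll2 and Lrrc4, also with clear ectoderm preference, had log2 ratios from -0.81 to -0.68. Lars2, a mitochondrial leucyl-tRNA synthetase gene with an unusually high value of 1366 TPM in WT against 632 in KO ectoderm (-1.11), was also lower in KO mesenchyme (342 and 201). Sap18 was also among the 15 lowest (43.7 and 23.6 TPM, -0.86) and barely differed between WT and KO mesenchyme (38.3 and 35.4).

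The highest named genes were led by genes of nasal and forebrain ectoderm. Fezf1, a zinc finger gene needed by olfactory neurons and their axons, had 6.23 TPM in WT and 23.0 in KO ectoderm, a 3.69-fold difference and a log2 ratio of 1.73, with 0.42 and 0.66 in WT and KO mesenchyme. Sp8, a zinc finger gene of the nasal pits and the limb ectodermal ridge, was at 2.36 and 8.34 (1.48), with 0.29 and 0.40 in mesenchyme. KO ectoderm was the highest of the 4 groups for both genes. Aldh1a3, an enzyme that makes retinoic acid in nasal and eye ectoderm, was at 17.1 and 54.5 (1.62). The homeobox genes Six3 (6.90 and 17.9, 1.26), Otx2 (11.6 and 27.0, 1.15) and Lhx2 (4.61 and 11.4, 1.14) and the transcriptional cofactor Eya2 (44.0 and 106, 1.25) followed. All of these nasal genes were lower in both mesenchyme groups than in KO ectoderm. Others of the 15 had other roles: the sulfotransferase-like gene Wscd1 (4.19 and 15.9, 1.71), the hypoxia-responsive gene Ndufa4l2 (3.10 and 10.1, 1.44), the tight junction gene Cldn9 (3.26 and 8.79, 1.20), the muscle and pharyngeal arch cofactor Vgll2 (3.51 and 9.0, 1.15), the peptidase gene Cpm (14.2 and 31.8, 1.11) and a pair of heat shock genes.

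**Figure D2:**
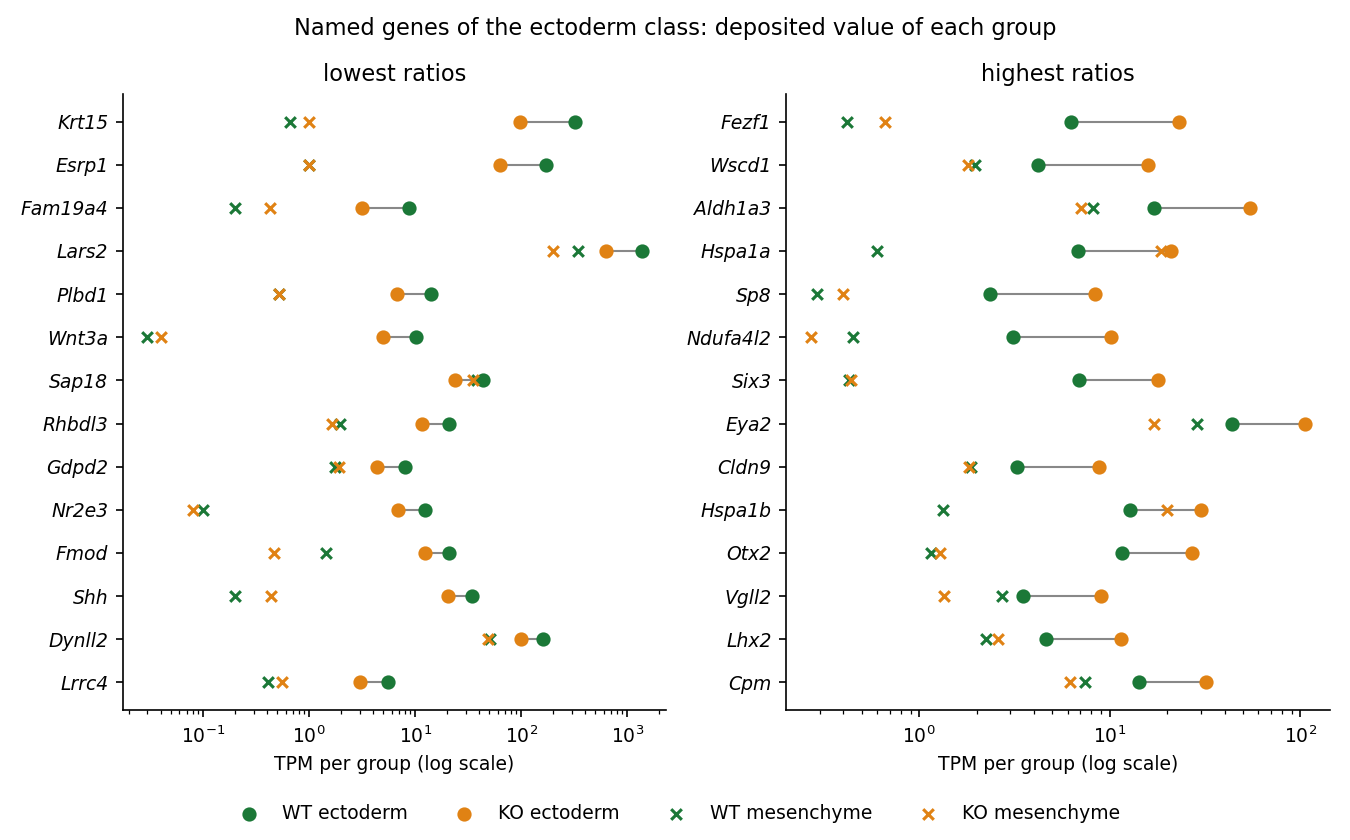
Deposited TPM of each group (log axis) for 14 of the 15 lowest and 14 of the 15 highest named genes of the ectoderm class; circles are ectoderm, crosses mesenchyme, green WT and orange KO, and the bar joins the ectoderm groups. Krt15 and Esrp1 have the lowest ratios and Fezf1 and Wscd1 the highest, and most crosses lie to the left of both circles; for Hspa1a and Hspa1b the KO mesenchyme cross lies beside the KO ectoderm circle.

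Subtraction raises the ratio of a gene that mesenchyme lacks by 0.17 with the WT share and 0.26 with the KO share, so it moves the highest genes away from 0 and the lowest towards it by construction. All 15 highest stayed past 1.5-fold after either share. Of the 15 lowest, 12 stayed past 1.5-fold after the WT share and 9 after the KO share. Shh was at -0.55 after the WT share and -0.46 after the KO share, under 1.5-fold in both. Wnt3a was at -0.74 and -0.67 and Krt15 at -1.54 and -1.45. The named genes came from 4040 protein-coding candidates at 5 TPM or more in the higher ectoderm group, of which 47 were higher and 24 lower. At the border of 1.5-fold, Palm2 (8.99 and 5.61 TPM) lay just past it on the lower side and Scnn1g (6.11 and 3.75) just short, and Lypd1 (4.14 and 6.84) just past it on the higher side and Faah (3.11 and 5.16) just short.

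To show what the sequence tables hold for the genes at both ends, the 250 bases upstream of the RefSeq start (GRCm38.p6) are printed 5′ to 3′ for a pair of lower Wnt ligands and 3 higher nasal genes. Capitals mark a GC box (GGGCGG) or a TCF/LEF motif (CTTTGAT or CTTTGAA) on either strand. The windows are chr11:59290752-59291001 (minus strand) for Wnt3a, chr6:91411354-91411603 (minus) for Wnt7a, chr6:23248265-23248514 (minus) for Fezf1, chr12:118846983-118847232 (plus) for Sp8, the second of its 3 starts, and chr17:85620584-85620833 (plus) for Six3.
Wnt3a: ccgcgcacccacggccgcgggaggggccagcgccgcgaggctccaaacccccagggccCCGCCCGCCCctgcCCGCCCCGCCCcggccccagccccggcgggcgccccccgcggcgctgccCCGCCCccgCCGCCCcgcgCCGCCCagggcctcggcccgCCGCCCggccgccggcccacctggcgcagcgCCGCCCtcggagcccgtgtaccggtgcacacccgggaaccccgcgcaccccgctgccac
Wnt7a: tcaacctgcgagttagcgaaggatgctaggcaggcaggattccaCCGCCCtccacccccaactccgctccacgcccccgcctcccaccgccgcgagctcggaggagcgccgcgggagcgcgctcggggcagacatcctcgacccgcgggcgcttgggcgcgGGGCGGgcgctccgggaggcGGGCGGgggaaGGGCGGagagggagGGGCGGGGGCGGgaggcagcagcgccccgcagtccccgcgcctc
Fezf1: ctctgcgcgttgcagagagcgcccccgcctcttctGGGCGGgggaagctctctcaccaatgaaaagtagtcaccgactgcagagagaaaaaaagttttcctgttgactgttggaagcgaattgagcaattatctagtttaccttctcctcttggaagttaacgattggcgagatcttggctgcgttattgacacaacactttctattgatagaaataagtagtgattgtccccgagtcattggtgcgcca
Sp8: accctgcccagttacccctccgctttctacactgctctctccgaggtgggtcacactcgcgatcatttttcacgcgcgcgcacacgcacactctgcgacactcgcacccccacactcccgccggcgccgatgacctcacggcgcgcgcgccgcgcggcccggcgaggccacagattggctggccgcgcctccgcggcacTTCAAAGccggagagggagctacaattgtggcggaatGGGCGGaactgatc
Six3: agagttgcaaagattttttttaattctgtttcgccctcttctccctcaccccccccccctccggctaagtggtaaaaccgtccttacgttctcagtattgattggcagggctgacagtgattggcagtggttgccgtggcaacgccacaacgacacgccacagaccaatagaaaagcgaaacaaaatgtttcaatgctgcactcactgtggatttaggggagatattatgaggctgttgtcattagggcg
The Wnt windows were rich in G and C, at 87.6% in Wnt3a and 77.6% in Wnt7a, and held 9 and 6 GC boxes, counting overlaps. Fezf1 stood at 47.6% with 1 GC box and Six3 at 48.8% with 0, and the Sp8 window at 67.2% with 1 GC box and the only TCF/LEF motif of the 5. This Sp8 window was printed for that motif: the other 2 starts had 40.8% and 50% with 0 of either motif.

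Over the whole class the shares of windows with each motif ranged as follows, with no test. A GC box was in 35.7% of all 32851 RefSeq windows, in 61.8% of those of class genes within 1.5-fold, in 39 of the 78 windows of higher genes (61 of 93 genes matched) and in 30.4% of those of lower genes (20 of 58 matched, 23 windows). A TCF/LEF motif was in 8.65%, 6.24%, 8.97% and 4.35% in that order. The ETS motif CCGGAAG was in 8.86%, 17.0%, 3.85% and 13.04%, and the E-box CACCTG in 20.2%, 22.1%, 24.4% and 30.4%. With so few lower windows, 1 window is worth 4.35%, and a match describes letters and not a bound site.

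The nasal and olfactory ectoderm list had the highest median of the lists in the ectoderm class. Of its 30 genes, 15 were in the ectoderm class and 11 in the mesenchyme class, and the remaining 4 were under 1 TPM. In the ectoderm class 11 of 15 were higher and 0 lower, against 1.68% and 1.05% of the class, with a median log2 ratio of 1.14. The median was 1.27 after the WT share and 1.33 after the KO share, with 11 higher each time, and 11 were also higher after quantile normalization and after the GC correction. Beside the genes already described, Pax6, a master gene of eye and nasal placode, was at 6.50 and 11.98 TPM in WT and KO ectoderm (0.79), the signal Fgf17 at 3.54 and 8.05 (1.0) and Six6 at 0.52 and 1.62 (0.79). The exceptions were Fgf8 (26.3 and 25.1), Otx1 (29.2 and 29.96), Sox2 (a log2 ratio of 0.11) and Meis1 (68.6 and 77.1). The list was partly drawn up around genes known to be high in these samples, so its count describes it and does not test it. Among retinoic acid enzymes, Cyp26c1, which breaks retinoic acid down, was at 15.3 and 29.2 (0.89) beside Aldh1a3, and Cyp26a1 at 19.5 and 22.6 (0.20).

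Six3, Otx2 and Lhx2 are also genes of the forebrain, several of whose other defining genes were near 0. Nkx2-1 was at 0.18 and 0.12 TPM in WT and KO ectoderm, Rax at 0.02 and 0.01 and Sox1 at 0.08 and 0.05. Emx1, a gene of the dorsal forebrain, was at 1.05 and 3.96 and was the only forebrain gene of 4 in the ectoderm class that was higher. All 3 forebrain list genes of the mesenchyme class were also higher as deposited, against 7.06% of that class. These were Ptprz1 (0.61), Dlx1 (0.60) and Fabp7 (0.59). After either subtraction 1 of the 3 was higher, Ptprz1 (0.64 WT share, 0.66 KO share), and 1 was lower, Fabp7. The lens genes Cryaa (0.02 and 0.04) and Foxe3 (0.00 and 0.01) were near 0, and the 4 lens genes of the ectoderm class lay within 1.5-fold. Summed levels were 51.7 and 67.6 TPM for the forebrain list of 23 genes and 33.2 and 40.6 for the lens list of 22. The part of these levels in the nasal result was not tested.

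Oral and dental epithelium genes lay slightly under 0 as deposited. Of 21 genes of this list in the class, 3 were lower and 0 higher, against 1.05% and 1.68% of the class. Among class genes 2-fold or more higher in WT ectoderm, 3.50% to 6.06% were lower, depending on the preference. The median of the list was -0.19, which was -0.05 after the WT share and 0.03 after the KO share. The lower ones were Shh, Nkx2-3, a homeobox gene of pharyngeal and oral epithelium (13.99 and 8.91, -0.60), and Fgf20, a signal of tooth and hair placodes (1.75 and 0.66, -0.73). Pitx1, a homeobox gene of oral epithelium, was at 40.6 and 48.9 TPM (0.26). The ectodysplasin and placode list shared several of these genes: of 13 in the class, Fgf20 was lower and Lhx2 higher, Edar was at 7.81 and 6.6 (-0.21), and the median was -0.21.

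**Figure D3:**
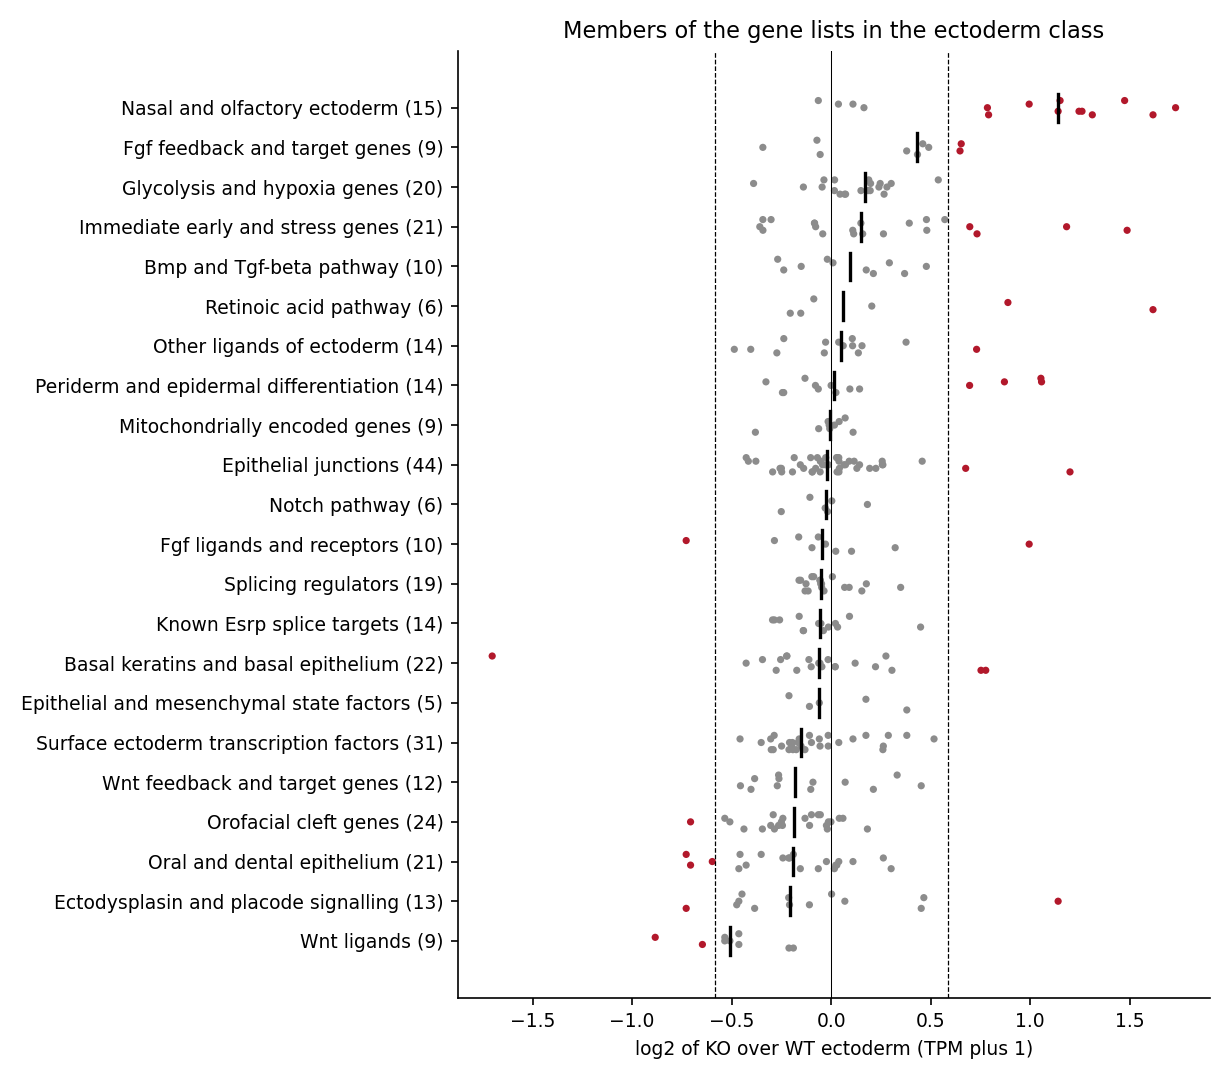
Log2 ratio of KO over WT ectoderm for the members of each gene list in the ectoderm class (number of measured class members in brackets); red points are at least 1.5-fold apart, black bars are medians and dashed lines mark 1.5-fold. The nasal list stands at a median of 1.14, the Wnt ligands at -0.51, and most other medians lie within 0.2 of 0.

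Among signals, the Wnt ligands of ectoderm all lay on the lower side as deposited. Of 19 Wnt genes, 9 were in the ectoderm class, and all 9 had log2 ratios under 0 as deposited, from -0.88 in Wnt3a to -0.19 in Wnt10a. At 1.5-fold 2 were lower, Wnt3a and Wnt7a (10.2 and 6.16, -0.65), and 0 higher, against 1.05% and 1.68% of the class, and the median was -0.51. All 9 were more than 5-fold higher in WT ectoderm than in WT mesenchyme. Of class genes with such a preference, 5.26% (5- to 20-fold) and 6.06% (20-fold or more) were lower, with medians of -0.09 and -0.11. Of all class genes 58.7% lay under 0. Wnt7b, the most abundant, had 131 and 90.1 TPM in WT and KO ectoderm (-0.53), Wnt4 at 90.4 and 65.3 (-0.46), and Wnt9b and Wnt3, both with roles in lip formation, at 50.7 and 34.7 (-0.53) and 44.9 and 31.3 (-0.51). After the GC correction 5 were lower. After the subtractions 1 was lower, the median was -0.35 with the WT share and -0.26 with the KO share, and Wnt6 (0.04) and Wnt10a (0.03) lay above 0 with the KO share. Since mesenchyme held 1.54 TPM or less of each of the 9, an admixture of the assumed size would lower a ligand by about 0.17 (WT share) or 0.26 (KO share). All 9 were under 0 after the WT share and 7 after the KO share, counts that depend on the share assumed. The upper quartile of the KO share was 24.2%, and a larger share lowers such genes more. The part of admixture in these ratios was not tested.

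Genes that respond to Wnt or limit it lay closer to 0. Of 12 in the class 0 were 1.5-fold apart, near the class shares of 1.68% higher and 1.05% lower for so few genes. Their median was -0.18 (-0.03 after the WT share and 0.06 after the KO share). Notum, a secreted enzyme that inactivates Wnt ligands, was at 20.2 and 14.5 TPM (-0.46), and Wls, which carries Wnt ligands to the cell surface, at 223 and 168 (-0.40). Dkk4, a Wnt antagonist of placodes, was on the higher side, at 16.1 and 22.5 (0.45, and 0.70 after the KO share). In the hedgehog pathway, Ptch1, receptor and target of Shh, was at 48.3 and 35.4 TPM (-0.44). Ptch1 kept its ratio after both subtractions (-0.45 and -0.36), with 37.6 and 25.5 TPM in WT and KO mesenchyme.

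Fgf feedback genes lay mostly above 0 in both classes. Of 9 in the ectoderm class 2 were higher and 0 lower, against 1.68% and 1.05% of the class, with a median of 0.43 (0.49 after the WT share, 0.54 after the KO share, and 0.31 with 1 higher after quantile normalization). Etv5, a transcription factor induced by Fgf signals, was at 40.3 and 64.0 TPM (0.65), and Dusp5, a phosphatase that limits ERK kinases, at 3.57 and 6.16 (0.65). Spry1 (33.5 and 47.4, 0.49) and Spry2 (34.7 and 48.1, 0.46) are inhibitors of receptor signalling. Spry1 passed 1.5-fold after either share (0.60 WT, 0.70 KO) and Spry2 after the KO share only (0.57 WT, 0.65 KO). The early gene Egr1 was under 0 (80.6 and 63.3, -0.34), as were Spred1 (-0.07) and Spred2 (-0.05), further inhibitors of the pathway. Etv4, in the mesenchyme class, was at 27.2 and 54.9 TPM in WT and KO ectoderm and at 40.05 and 27.7 in WT and KO mesenchyme, so KO ectoderm was above both mesenchyme groups. Its log2 ratio was 0.99 as deposited, 1.03 after the WT share and 1.12 after the KO share. All 5 mesenchyme-class members, Etv1, Etv4, Spry4, Il17rd and Dusp6, were higher before and after either subtraction, against 7.06%, 2.64% and 3.01% of that class. The ligands and receptors themselves split: Fgf17 was higher, Fgf20 lower, and Fgf8, Fgf9 (25.3 and 25.8) and Fgfr2 (447 and 366, -0.29) within 1.5-fold. Of the Bmp and Tgf-beta and the Notch pathways, 0 of 10 and 0 of 6 class members were 1.5-fold apart. For so few genes these counts are near the class shares. Of 14 other ligands, Sema3e, a guidance cue, was higher (4.41 and 7.98, 0.73).

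General epithelial genes are set beside the class, of which 1.68% were higher and 1.05% lower. Of 31 surface ectoderm transcription factors in the class, 0 were 1.5-fold apart, which for so few genes is near those shares. Of the 31 factors, 23 had log2 ratios under 0, against 58.7% of the class. Their median was -0.15 as deposited, -0.01 after the WT share and 0.07 after the KO share. Trp63, the main factor of stratified epithelium, was at 193 and 156 TPM (-0.30), Tfap2a at 73.4 and 59.8 (-0.29) and Grhl3 at 98.1 and 89.5 (-0.13). Of 44 junction genes 2 were higher, Cldn3 (17.7 and 28.9, 0.68) and Cldn9, and 0 lower. The median of the junction list was -0.02 as deposited and 0.13 and 0.21 after the WT and KO shares. Of 22 basal epithelium genes Krt15 was lower, Aqp3 (5.2 and 9.45, 0.75) and Plet1 (1.20 and 2.77, 0.78) were higher (neither after quantile normalization), and Krt14 (524 and 440, -0.25) and Krt5 (-0.43) lay within 1.5-fold. The simple epithelium keratins Krt8 (144 and 175, 0.28), Krt18 (152 and 189, 0.31) and Krt19 (75.6 and 88.4, 0.22) lay above 0. Krt15 thus stood apart from the other keratins of its list, whose lowest ratio was that of Krt5.

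Periderm and differentiation genes gave 4 higher and 0 lower of 14 in the class, against 1.68% and 1.05% of the class. Krt17 was at 27.97 and 45.9 TPM (0.70) and Krt6a at 14.8 and 27.8 (0.87), both keratins of periderm and activated epithelium, and Krtdap (3.83 and 9.03, 1.05) and Sprr1a (1.09 and 3.35, 1.06) belong to differentiating epidermis. All 4 were under 0.3 TPM in either mesenchyme. The other 10 were within 1.5-fold, among them Gabrp (58.9 and 46.7, -0.33) and Cldn4 (149 and 164, 0.14), and the median of the 14 was 0.01, -0.11 after quantile normalization with 4 higher, and -0.03 after the GC correction with 3 higher, where Krt17 was at 0.53.

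Of 14 known splice targets of Esrp proteins in the class, 0 were 1.5-fold apart, against 1.68% higher and 1.05% lower in the class. For so few genes a count of 0 is near those shares. Their log2 ratios ran from -0.29 in Slk to 0.45 in Nfasc with a median of -0.06. The values per gene do not separate splice forms, which are what Esrp proteins change. Of 19 other splicing regulators of the class 0 were 1.5-fold apart, also near those shares, with a median of -0.05. Of 24 orofacial cleft genes in the class, 21 had log2 ratios under 0 as deposited, against 58.7% of the class. Their median was -0.19, and Shh was the only one at 1.5-fold. That median was -0.05 after the WT share and -0.01 after the KO share. The 16 members in the mesenchyme class went the other way as deposited: 0 were under 0 and 8 were higher, against 7.06% of that class (median 0.63). Of these 16, 1 was higher and 1 lower after the WT share (0.11), and 3 and 3 after the KO share (0.29).

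Several stress genes had higher values in KO tissue of both layers. Hspa1a, a heat shock gene, was at 6.80 and 20.9 TPM in WT and KO ectoderm and at 0.60 and 18.4 in WT and KO mesenchyme. Its near-identical neighbour Hspa1b, with which reads can be shared, was at 12.7 and 30.1 in ectoderm and at 1.34 and 19.8 in mesenchyme. Jun (35.2 and 57.7, 0.70) and Atf3 (8.27 and 14.4, 0.73), early genes of stress and wounding, were the other 2 higher members of 21 in the class. Thus 4 of the 21 were higher and 0 lower, against 1.68% and 1.05% of the class. For Atf3 KO mesenchyme was at 11.7 TPM against 1.87 in WT mesenchyme, and for Jun at 43.7 against 31.5. Over 20 genes of glycolysis and hypoxia the median was 0.17, with 0 at 1.5-fold, near the class shares. The 9 mitochondrially encoded genes of the class had a median of -0.01.

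The counted genes of the class differed from the rest in kind. Pseudogenes made up 34.5% of the 58 lower genes (20) and 12.9% of the 93 higher genes (12), against 7.22% of the class. Predicted models made up 43.1%, 16.1% and 12.1% in that order. A pseudogene shares reads with its parent gene, so such values are uncertain. Rps12l1, chosen after its values were seen, had 396 TPM in WT ectoderm and 30.3 in WT mesenchyme and was listed at 0 in both KO columns. The predicted models Gm7336, Gm10359 and Gm12671 held the same values as each other, 34.7 and 73.0 TPM in WT and KO ectoderm, and count as 3 of the 93. The median transcript GC content was 52.8% in the higher genes and 49.6% in the lower, against 49.4% in the class.

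The class was set in WT tissue, and KO mesenchyme can be higher than WT ectoderm even so. This held for 26 of the 93 higher genes, 12 of them predicted models, and for 5 of the 58 lower (8.62%), against 27.96% for the higher genes and 19.3% for the whole class. Of the 26, 0 had a gain within the KO mesenchyme share of 16.4% used here. This count depends on that share, since single core genes gave shares of up to 43.4%. Gm4017 came closest, with a gain of 35.1% of the excess of KO mesenchyme over WT ectoderm, and Hspa1a gained 121%. With the class limited to genes also at or above KO mesenchyme in WT ectoderm, 67 were higher and 53 lower. Of the higher genes 18.3% were also higher in KO mesenchyme, against 3.48% of the class, and of the lower genes 12.1% were also lower there, against 7.204% of the class. The opposite direction in mesenchyme was held by 3.23% of the higher and 17.2% of the lower genes.

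The second question was what carried-over mesenchyme does to the mesenchyme class, and whether it matters which mesenchyme is taken away. As deposited, 594 of 8410 genes of that class were higher in KO ectoderm (7.06%) and 5 lower (0.0595%). The share of mesenchyme was read from core genes at 5 TPM or more and at least 5-fold higher in a mesenchyme group than in WT ectoderm. For each, the gain of KO over WT ectoderm was divided by the excess of mesenchyme over WT ectoderm. Against WT mesenchyme the median share was 11.01% over 25 genes (quartiles 9.86 and 13.2%), and against KO mesenchyme 16.4% over 22 genes (12.8 and 24.2%). The median core gene stood at 4.25% of its WT mesenchyme level in WT ectoderm (25 genes) and at 23.1% of its KO mesenchyme level in KO ectoderm (22 genes). These percentages are not on the same scale: genes of the core list had a median log2 ratio of -0.58 of KO over WT mesenchyme. Prrx1, a homeobox gene of facial mesenchyme, was at 9.22 and 40.4 TPM in WT and KO ectoderm and at 293 and 254 in WT and KO mesenchyme, which gives 11.01 and 12.8%. Col1a1, the main collagen of bone and skin, was at 5.61, 24.5, 132 and 49.1, which gives 14.9 and 43.4%.

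Shares differed between regional lists, more so against KO mesenchyme. Mandibular mesenchyme factors gave a median of 16.5% against WT and 27.3% against KO mesenchyme, maxillary and oral factors 13.6 and 20.2%, and frontonasal factors 9.82 and 10.9%. Endothelial genes gave 10.05 and 13.8%, skeletal muscle 14.0 and 18.2%, and genes of olfactory and migrating neurons 13.1 and 7.05%. No single share thus held for all lists.

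**Figure D4:**
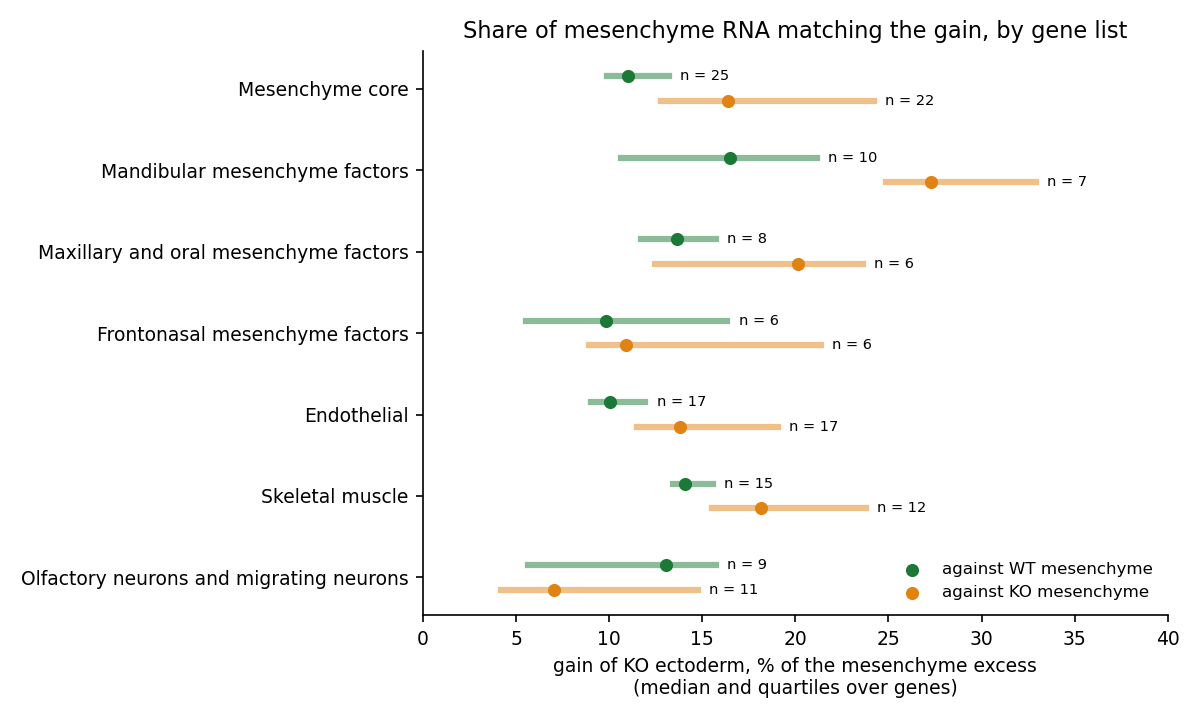
Gain of KO over WT ectoderm in percent of the excess of WT mesenchyme (green) or KO mesenchyme (orange) over WT ectoderm, by gene list; dots are medians, bars the quartiles over genes, and n is the number of genes. Mandibular factors reach 27.3% against KO mesenchyme, while frontonasal factors lie near 10% against either.

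Subtraction removed most of the excess of higher genes. By construction it lowers every gene whose mesenchyme value is above its KO ectoderm value, so this fall does not test whether mesenchyme was carried over. With the WT share, 222 genes of the mesenchyme class were higher (2.64%) and 74 lower (0.88%), and the median moved from 0.10 to 0.04. With the KO share, 253 were higher (3.01%) and 168 lower (2%), with a median of 0.06. Of the 594 genes higher as deposited, 168 stayed higher after both subtractions, 45 after the WT share only, 45 after the KO share only and 336 after neither. Of the same 594, 30 were lower after both, 12 after the WT share only and 63 after the KO share only. In the whole class, 5 genes were higher after one subtraction and lower after the other. The subtraction set 18 measured genes to 0 with the WT share and 60 with the KO share, 13 of them in both.

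The effect of the subtractions was split by what the KO did to a gene in mesenchyme. Of 1435 genes that were lower in KO mesenchyme, 165 were higher in KO ectoderm as deposited, 45 after the WT share and 99 after the KO share. Of 89 genes that were higher in KO mesenchyme, 27 were higher as deposited, 20 after the WT share and 12 after the KO share, and 22 were lower after the KO share. The 6886 others gave 402, 157 and 142 higher genes and, after the shares, 46 and 141 lower ones. The subtractions differ both in the mesenchyme taken and in the size of the share. With KO mesenchyme taken at the WT share of 11.01%, a setting added after the data were seen, 327 genes of the class were higher (3.89%) and 44 lower (0.523%). Of the genes lower in KO mesenchyme 121 were then higher in KO ectoderm, of those higher there 14, and of the 6886 others 192, and 28 of these others were lower. The rise from 46 to 141 lower genes among the others thus did not appear when KO mesenchyme was taken at the smaller share.

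**Figure D5:**
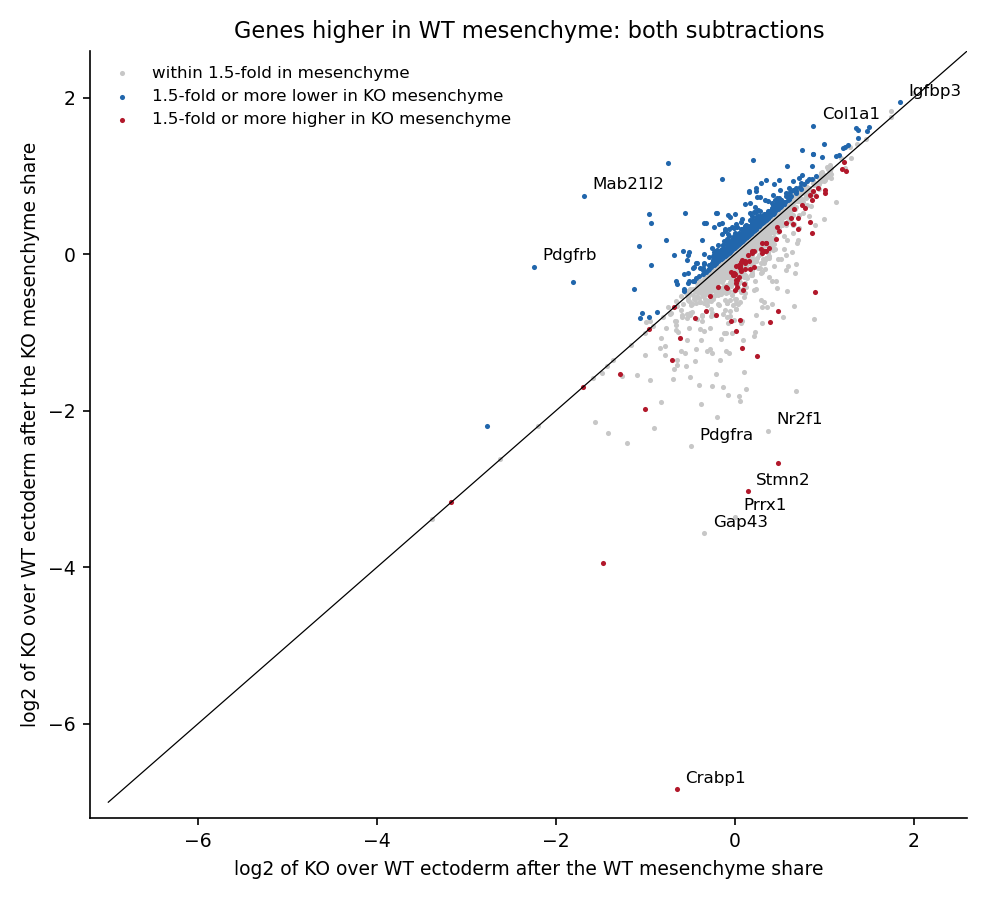
Each point is 1 of the 8410 genes of the mesenchyme class; the axes give the log2 ratio of KO over WT ectoderm after subtraction of the WT mesenchyme share (horizontal) and the KO mesenchyme share (vertical), and the line marks equality. Genes lower in KO mesenchyme (blue) lie mostly above the line, genes higher there (red) mostly on or below it; Igfbp3 stands at 1.85 and 1.95, Mab21l2 at -1.69 and 0.75.

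Some genes of the mesenchyme class stayed high whichever mesenchyme was taken. Igfbp3, a secreted binding protein of insulin-like growth factors, had 22.7 and 85.1 TPM in WT and KO ectoderm and 93.9 and 58.9 in WT and KO mesenchyme. KO ectoderm was above KO mesenchyme, and the log2 ratio was 1.86 as deposited, 1.85 after the WT share and 1.95 after the KO share. Dlx5, a homeobox gene of the lower jaw and of the nasal placode, was at 6.23, 20.9, 45.8 and 22.0 TPM in the order WT ectoderm, KO ectoderm, WT mesenchyme, KO mesenchyme (1.6, 1.38 and 1.58). Hand2, a mandibular factor, was at 0.79, 6.84, 33.3 and 18.9 (2.13, 1.35 and 1.61). Pax7, of nasal and muscle tissue, was at 2.95, 9.08, 14.1 and 7.38 TPM in the same order of groups (1.35, 1.26 and 1.40). Adamts9, Tnnt1, Stra6, Aldh1a2 and Col1a1 were also among the 10 highest after the KO share, the value they were chosen on, with ratios from 1.37 to 1.64. After the WT share their ratios ran from 0.88 in Col1a1 and 0.99 in Aldh1a2 to 1.46 in Adamts9. Col1a1 is also among the core genes that set the shares. Its own share against KO mesenchyme was 43.4%, above the 16.4% subtracted. Of the 11 nasal list genes in the mesenchyme class, 10 were higher as deposited and 6 after either subtraction.

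Other genes turned on the choice. Mab21l2, a gene of jaw mesenchyme, was at 3.24, 17.7, 158 and 76.8 TPM in that order of groups. Its ratio was 2.14 as deposited, -1.69 after the WT share and 0.75 after the KO share. Pdgfra, the growth factor receptor that marks mesenchyme, was at 4.47, 16.5, 126 and 122 (1.68, -0.49 and -2.45), and Prrx1 had ratios of 2.02, 0.00 and -3.35. Pdgfra and Prrx1 are among the core genes that set the shares. The share of Prrx1 against WT mesenchyme was itself the median of 11.01% subtracted, so its 0.00 is fixed by construction. Crabp1, a retinoic acid binding protein, was at 113, 127, 572 and 873 (0.17, -0.64 and -6.83), and the neuronal genes Gap43 (0.52, -0.34 and -3.56) and Stmn2 (0.68, 0.15 and -3.03) had the next ratios. Such large negative ratios come from values subtracted to or near 0. Of the 10 genes that differed most between the subtractions, 5 lay within 1.5-fold between WT and KO mesenchyme, Prrx1 and Pdgfra among them, and KO mesenchyme at the WT share left Prrx1 at 0.56 and Pdgfra at -0.29. Mab21l2 was at 1.43 in that setting. For genes of this kind the deposited table does not give a direction in ectoderm.

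Read by list, the mesenchyme core had 23 of 33 genes higher and 0 lower as deposited (median 1.21), 5 and 6 after the WT share (-0.01) and 9 and 7 after the KO share (0.17), as follows from its use in setting the share. Of the whole mesenchyme class 7.06% were higher and 0.0595% lower as deposited. These were 2.64% and 0.88% after the WT share and 3.01% and 2% after the KO share. Endothelial genes went from 14 of 15 higher (1.17) to 0 higher and 4 lower (-0.14) with the WT share and 0 higher and 7 lower (-0.48) with the KO share. Mandibular factors had medians of 1.36, 0.76 and 1.01, with 9, 5 and 7 of 9 genes higher and 0, 1 and 1 lower. Frontonasal factors had medians of 0.91, 0.37 and -0.03 and 9, 3 and 3 of 11 higher and 0, 3 and 4 lower. Neuron genes gave 13, 9 and 4 higher of 18, and 0, 2 and 5 lower. Of the red blood cell list, 1 of 11 was higher as deposited and 9 were lower after the KO share, so a subtraction scaled to mesenchyme takes away more blood RNA than the deposited values gained.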

How the data were processed

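The deposited table gives TPM per gene symbol with 1 column per group, made by the authors from 4 libraries each. The submitters' processing notes name STAR 2.5.2a, kallisto 0.43.0 and mm10. The tool behind the TPM values, and how the libraries were combined, is not given in the sources used here. Groups follow the sample labels. Where 103 symbols stood in several rows, only that with the largest sum entered. Log2 ratios of TPM plus 1, counts, medians and subtractions were computed from these values with pandas 2.3.3 and numpy 2.4.6. The share estimate and the subtraction of WT mesenchyme were tested on simulated mixtures of WT ectoderm and WT mesenchyme without noise. Subtraction of KO mesenchyme, and shares that differ between genes, were not simulated. KO ectoderm minus a share of mesenchyme was divided by 1 minus the share and floored at 0. Gene types, positions and transcript GC came from GENCODE M21 on GRCm38 (99.3% of symbols matched), and the GC trend from a lowess fit (fraction 0.3, statsmodels 0.14.6). Promoter windows were RefSeq's on GRCm38.p6. No per-library value was used, so no test was run.

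Named genes were 6 markers, the 15 highest and 15 lowest log2 ratios of protein-coding class genes that are not predicted models and reach 5 TPM in an ectoderm group, up to 5 members past 1.5-fold of each of 39 lists (otherwise the 2 furthest from 0), and, in the mesenchyme class, the 10 highest after the KO share and the 10 that differ most between the subtractions. Other genes are named as list members. Some of the genes so chosen are counted but not reported here by name. The members, lists and rules were chosen with earlier results of these data known.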

Additional observations from a re-analysis of the deposited data

How the results depend on the processing

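The 15 highest named genes stayed past 1.5-fold under each alternative that gives a value per gene. The 15 lowest kept their direction, but only 6 stayed past 1.5-fold at the upper quartile of the KO share, 8 with own shares, 9 after the KO share (10 at its lower quartile), 12 after the WT share (13 and 10 at its quartiles) and 10 with a pseudocount of 5 TPM. Counts are given as higher and lower genes. In the ectoderm class (93 and 58 as reported) they were 149 and 104 with a pseudocount of 0.1 TPM, 36 and 27 with 5 TPM, 54 higher at a minimum mean of 5 TPM, and 30 and 18 at 2-fold. The lower genes were 112 after quantile normalization and 88 after scaling to protein-coding nuclear genes. After the KO share 160 were higher, after its upper quartile 237, after the WT share's upper quartile 146, and 187 with the mesenchyme share of each genotype taken from its own ectoderm. With the class set at 2-fold they were 30 and 42, at 5-fold 8 and 17, and with the class set in KO tissue 166 and 37. A share from all 5-fold genes, added after the data were seen, gave 142 higher with KO mesenchyme.

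In the mesenchyme class (594 and 5) the lower genes were 15 at a pseudocount of 0.1, 14 after quantile normalization and 8 after scaling to coding genes. Counts were 204 and 2 at a pseudocount of 5, 263 and 1 at a minimum of 5 TPM and 194 and 3 at 2-fold. They were 222 and 74 after the WT share (243 and 41, 189 and 148 at its quartiles), 253 and 168 after the KO share (291 and 71, 222 and 428) and 341 and 226 with own shares. Shares from all 5-fold genes gave 210 and 95 (WT) and 278 and 103 (KO), and KO mesenchyme at the WT share, also added after the data were seen, 327 and 44.

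The genes of the mesenchyme class named in this paragraph changed sign only under subtraction. Among other genes of the class, some with ratios near 0 also changed sign without it, such as Dll1 (0.14 as deposited, -0.08 after quantile normalization). Mab21l2 was at -1.69 after the WT share, -0.35 at its lower quartile, and -2.08 at the upper quartiles and with the share of all 5-fold genes. Pdgfrb was at -2.25, -1.87 and -2.25 in the same order, and -0.16 after the KO share. Pdgfra was at -0.49 and -2.45 after the WT and KO shares, -1.39 at the lower quartile of the KO share, -0.86 with the WT share of all 5-fold genes and -2.45 at the upper quartiles and with the KO share of all 5-fold genes. Prrx1 was at -3.35 after the KO share, -1.75 at the upper quartile of the WT share, and -0.32 and -0.62 with shares of all 5-fold genes. Stmn2 was at -3.03 after the KO share, -2.70 with own shares, -0.011 at the upper WT quartile, -1.19 at the lower KO quartile and -1.71 with all 5-fold genes. Crym was at -2.67, -2.11 and -1.93 (KO share, own shares, lower quartile). Nr2f1 was at -2.25, -0.45 and -0.22 in that order, -0.16 at the upper WT quartile and -0.72 with all 5-fold genes. Lum was at -1.75, -1.24 with own shares, -2.61 at the upper quartile and -0.39 with all 5-fold genes. With KO mesenchyme at the WT share Stmn2 was at -0.69, Crym at -0.85 and Pdgfra at -0.29. These signs follow from the subtraction itself, which takes away up to the whole KO value. Pdgfra, Pdgfrb, Prrx1 and Lum are also among the core genes that set the shares.

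No paired analysis was possible because the table holds 1 value per group, and leaving out a library was not possible for the same reason. TPM keep no record of depth, so no counting error can be given.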
